A study of Triticum aestivum with 13 samples.

Results

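Transcript levels in leaves of the resistant bread wheat line TugelaDn5 were compared with those in its susceptible near-isogenic parent Tugela, both fed on by the Russian wheat aphid. The comparison took every array the labels give to either line, 4 of TugelaDn5 and 3 of Tugela, out of 13 in the series, and described 61179 probe sets, the groups of short probes that each read a transcript on the Affymetrix wheat array. TugelaDn5 carries the resistance gene Dn5 and is labelled as antibiotic and antixenotic. TugelaDn1 (gene Dn1, antibiotic) and TugelaDn2 (gene Dn2, tolerant) had 6 arrays between them. They are used to place the difference, and in the main fit they also enter the common estimate of the spread between repeats. Tugela (Dn0) is labelled as susceptible. All plants of the 4 lines were infested in the 3-leaf stage with 10 aphids of Diuraphis noxia biotype SA1, which could not leave them, and after 48 h all leaves but the first were taken. There were 3 biological repeats a line. TugelaDn5 repeat 3 was hybridised to 2 arrays, which were averaged into 1 repeat. Nothing in the labels says whether repeats were separate plantings, so p-values measure the spread between these samples only. Each line is a single genotype and plants without aphids are not part of the comparison, so that a constant difference between the genomes and a response to feeding cannot be told apart. Nor can fewer cells of a type be told apart from less RNA per cell.

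Russian wheat aphids feed on phloem sap, and on susceptible wheat they cause chlorotic streaks and rolled leaves. Dn genes are plant loci that limit this damage. Antibiosis means that the plant harms the growth or reproduction of the aphid, and antixenosis that aphids settle on it less readily. Near-isogenic lines are made by repeated backcrossing, and the introgressed segment around the selected locus can carry further genes of the donor whose transcripts differ from those of the parent. A short-oligonucleotide array was designed on given sequences, so its probes can also bind less well to a transcript that is present but differs in sequence.

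Scaling had given every array the same trimmed mean intensity of 500.1, and between 19.3% and 21.4% of values on an array lay under 16, the floor used here, which is 4 on the log2 scale. The leaf transcripts rbcl, the large subunit of the carbon-fixing enzyme Rubisco, and PsbO, a subunit of photosystem II, had log2 levels above 16 in every repeat of both lines on their brightest probe sets. Sucrose synthase control probes for the 3′ end exceeded those for the 5′ end by 5.63 ± 0.75 in TugelaDn5 and 5.11 ± 0.76 in Tugela (log2, SD, n = 3 each), glucose-6-phosphate dehydrogenase by 2.68 ± 0.47 in TugelaDn5 and 2.08 ± 0.41 in Tugela, and ubiquitin by -1.21 ± 0.076 in TugelaDn5 and -1.36 ± 0.21 in Tugela. The ranges overlapped between the lines. Between same-numbered repeats, however, the glucose-6-phosphate dehydrogenase difference was higher in TugelaDn5 in all 3 pairs (3.10, 2.18 and 2.76 in TugelaDn5 against 2.31, 1.61 and 2.31 in Tugela), as was that of ubiquitin, and that of sucrose synthase was higher in repeats 2 and 3. The part of RNA quality in the results was not tested. Over all probe sets, which are not independent, the pair of arrays of TugelaDn5 repeat 3 had a Spearman's rho of 0.916. Between different TugelaDn5 repeats it was 0.872 to 0.882, and between TugelaDn5 arrays and those of other lines 0.846 to 0.871. The log2 SD between the 2 hybridisations was 0.196 over bright probe sets and 0.367 over called bright ones (terms defined below).

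A single array stood apart in the places where TugelaDn5 and Tugela differed. TugelaDn2 repeat 3 lay part of the way towards TugelaDn5, while the other repeats of TugelaDn1 and TugelaDn2 lay close to Tugela. Over the 129 bright probe sets called at least 4-fold higher in TugelaDn5 (terms defined in the next paragraph), its median position was 26.3% of the distance in linear intensity from the Tugela mean (0%) to the TugelaDn5 mean (100%), and the medians of the other 5 repeats of TugelaDn1 and TugelaDn2 were 2.66% to 4.43%. Over the 248 called at least 4-fold lower, its median was 26.4% and those of the other 5 repeats were 5.11% to 9.54%. It exceeded both other TugelaDn2 repeats by more than 1 log2 unit in 36 of the 129, against 5 and 5 for those repeats, and lay more than 1 below both in 34 of the 248, against 2 and 3. What set this array apart was not tested. Its mean enters no value of the TugelaDn5 and Tugela difference itself, but it enters the common estimate of spread. The totals and several of the results that rest on it are therefore given with and without it.

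**Figure D1:**
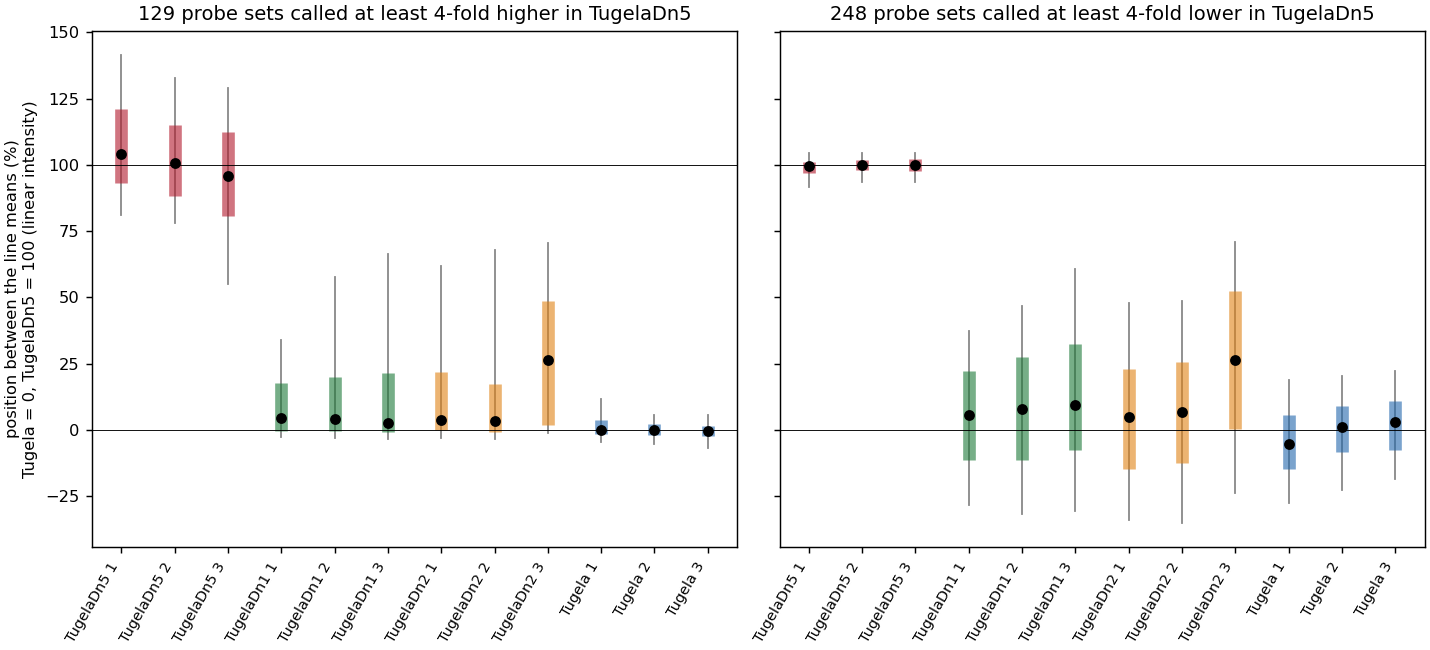
Position of each of the 12 repeats between the Tugela mean (0%) and the TugelaDn5 mean (100%) in linear intensity, for the 129 probe sets called at least 4-fold higher (left) and the 248 called at least 4-fold lower (right) in TugelaDn5. Points are medians over probe sets, thick bars the interquartile range and thin lines the 10th to 90th percentile. TugelaDn2 repeat 3 had medians of 26.3% and 26.4%, above the other TugelaDn1 and TugelaDn2 repeats. Probe sets were chosen by the TugelaDn5 and Tugela difference, so those 6 repeats show the scale only.

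TugelaDn5 differed from Tugela in both directions, with more falls than rises called and a larger median size of the called falls. How far the calls leaned towards falls depended on the floor and the variance model. A probe set was called when limma gave it a p under 0.05 after Benjamini-Hochberg adjustment over every probe set tested. In total, 1266 were called, 2.07% of those tested, of which 501 were higher (0.819%) and 765 lower (1.25%) in TugelaDn5. A probe set was termed bright when its mean log2 level was 8 or more, an intensity of 256, in either line. Of 20070 bright probe sets 992 were called, 4.94%, with 393 higher (1.96%) and 599 lower (2.98%). Below that level 274 of 41109 were called (0.667%). A probe set can be bright through the higher line alone, so a large difference helps to admit it and these shares are a description. Of 17401 probe sets bright in both lines, 545 were called (3.13%). All 1266 had repeats that did not overlap between the lines, as did 34% of all bright probe sets. The median change of the called bright probe sets was 2.65-fold upwards among the rises and 3.16-fold downwards among the falls, and 776 of the 992 changed at least 2-fold. The median log2 change over all bright probe sets was 0.016, and 51.9% of them were higher in TugelaDn5.

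Among large changes, calls were more often falls although as many probe sets differed upwards. Of bright probe sets that differed at least 2-fold, called or not, 816 were higher and 818 lower in TugelaDn5. Of the 816 that were higher, 285 passed the test (34.9%), and of the 818 that were lower, 491 did (60%). Among those that did not pass, the 531 higher ones had a median SD between repeats of 0.38 in TugelaDn5 and 0.59 in Tugela, and the 327 lower ones of 0.52 in TugelaDn5 and 0.32 in Tugela. The line with the lower level thus had the wider spread in both directions. Among the called falls 84 were 16-fold or more and 164 between 4-fold and 16-fold. Among the called rises 46 and 83 were of these sizes.

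**Figure D2:**
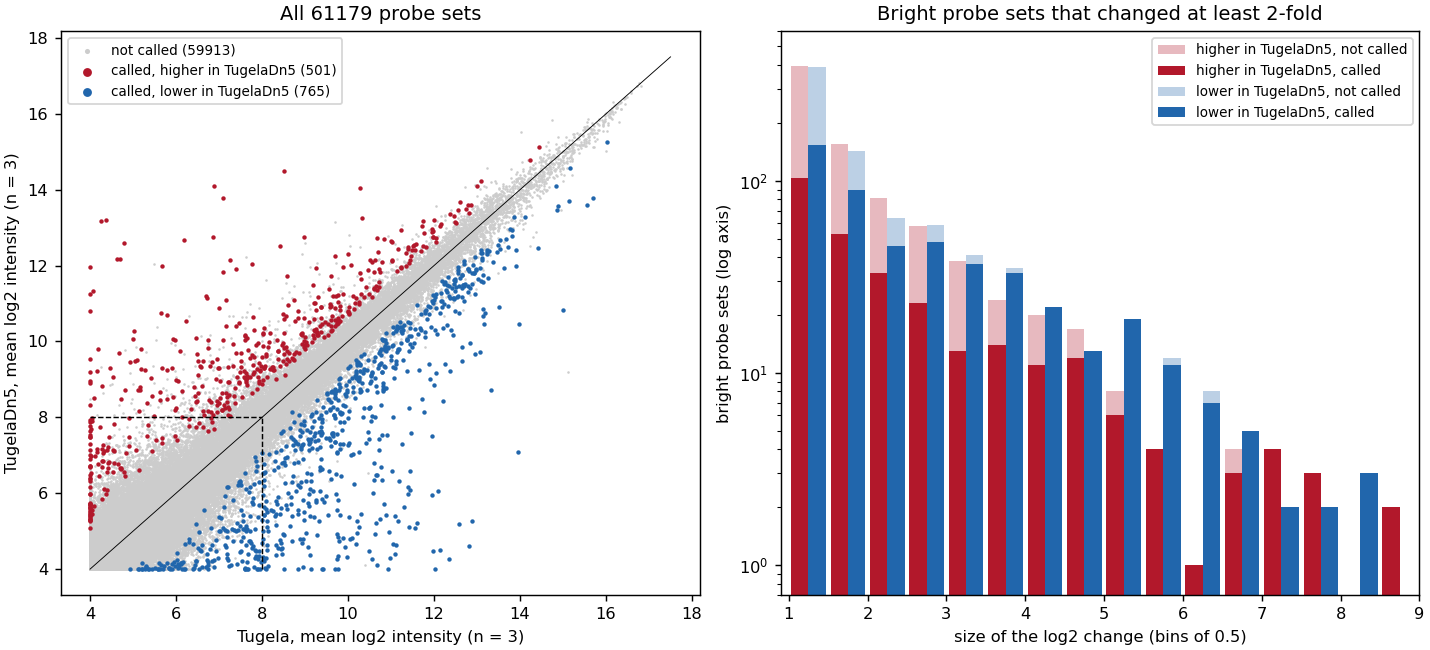
Left, mean log2 intensity of each of 61179 probe sets in TugelaDn5 (vertical) against Tugela (horizontal), n = 3 repeats a line, with called probe sets in red (501 higher in TugelaDn5) and blue (765 lower). The dashed corner encloses probe sets below a mean log2 of 8 in both lines. Right, number of bright probe sets (log axis) by size of a change of at least 2-fold, with the called part in full colour; totals were 816 higher and 818 lower, of which 285 and 491 were called.

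The counts depended on single repeats and on the model. Without TugelaDn5 repeat 1 or 2 the total was 725 or 785, and without Tugela repeat 2 or 3 it was 772 or 757. Without TugelaDn2 repeat 3 it was 1314. The bright calls numbered 526 without TugelaDn5 repeat 1, of which 27.2% were higher, and 566 without its repeat 2, of which 29.3% were higher, against 39.6% of the 992. Under other settings the share moved upwards, to 45.1% at a floor of 32 and 45.2% at a floor of 64. Same-numbered repeats of TugelaDn5 and Tugela deviated together weakly, with correlations of 0.124 to 0.268. This was not so over all 4 lines, where same-numbered pairs correlated at -0.196 to 0.268 and other pairs at -0.272 to 0.303. In a fit of TugelaDn5 and Tugela alone with the repeat number as a block, which leaves 2 residual degrees of freedom, limma called 0 probe sets, while 7416 had an unadjusted p under 0.05. All 105 called probe sets picked by the naming rules, which are given with the processing, had the same sign in that fit. Not all of the 105 are printed here. The other alternatives numbered 22, and statements on how often a call held refer to these, so that a call held in all 22 is still lost in the 2-line block fit.

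Where a transcript was near the floor in one line, the lines TugelaDn1 and TugelaDn2 mostly resembled Tugela. In 63 of the 599 called bright falls the TugelaDn5 mean was below 5. In 35 of these all 6 repeats of TugelaDn1 and TugelaDn2 were at 8 or more, and in 1 of them all 6 were below 8. In 25 of the 393 called bright rises the Tugela mean was below 5. In 16 of these all 6 repeats of TugelaDn1 and TugelaDn2 were below 8, in 1 all 6 were at 8 or more, and in 6 TugelaDn2 repeat 3 alone of the 6 was at 8 or more. Over all called bright falls, all 6 repeats lay on the Tugela side of the midpoint between the lines in 398 of 599 (66.4%), or in 446 of 599 for the 5 repeats without TugelaDn2 repeat 3. For the rises these numbers were 147 and 210 of 393. All 6 lay on the TugelaDn5 side in 6 falls and 24 rises. As a contrast of its own in the same fit, TugelaDn5 minus the mean of TugelaDn1 and TugelaDn2 gave 1249 calls (2.04% of 61179), and 1335 without TugelaDn2 repeat 3. It shares the TugelaDn5 arrays with the comparison against Tugela.

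The 12 largest rises among called bright probe sets were bright in TugelaDn5 and dim, most of them near the floor, in Tugela, and none of them has a gene in the tables used. Their TugelaDn5 repeats lay between 10.65 and 14.47 and their Tugela repeats from the floor of 4 to 7.37. Ta.24954.1.S1_at, with the largest rise, had log2 levels of 13.16, 13.24 and 13.13 in the TugelaDn5 repeats, and the floor, the floor and 4.76 in the Tugela repeats. TugelaDn5 was thus at least 484-fold higher (log2 change 8.92, SE 0.60, limma adjusted p = 6.35e-05). All 6 repeats of TugelaDn1 and TugelaDn2 stayed at 6.36 or less, and the call held in all 22 alternatives other than the 2-line block fit. TaAffx.97454.1.A1_at had the same shape, at 12.07, 11.99 and 12.44 in TugelaDn5 and at the floor in Tugela except 6.11 in repeat 2 (at least 176-fold, adjusted p = 0.000675). TaAffx.13386.1.A1_at read 10.80, 10.65 and 10.91 in TugelaDn5 and was at the floor in all Tugela repeats (at least 111-fold, adjusted p = 1.46e-05). The TugelaDn1 and TugelaDn2 repeats of this probe set lay from 4.60 to 6.19, between the others but far nearer to Tugela.

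A pair of the largest rises was shared by other resistant lines. TaAffx.104444.1.S1_at read 12.33, 11.997 and 12.21 in TugelaDn5, from 11.64 to 12.997 in the 6 repeats of TugelaDn1 and TugelaDn2, and at the floor in Tugela except 5.90 in repeat 2 (at least 187-fold higher in TugelaDn5 than in Tugela, adjusted p = 3.96e-05). Tugela alone was dim, and TugelaDn5 minus the mean of the other resistant lines was -0.28 (adjusted p = 0.85). Ta.23373.1.S1_at read 11.33, 11.10 and 11.32 in TugelaDn5, 11.05, 10.76 and 5.03 in TugelaDn1, 10.60, 8.76 and 10.76 in TugelaDn2, and was at the floor in all Tugela repeats (at least 152-fold, adjusted p = 0.0267). In this probe set TugelaDn1 repeat 3 was the only resistant repeat near the floor.

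In 7 of the 12 largest rises TugelaDn2 repeat 3 lay more than 1 log2 unit above both other TugelaDn2 repeats. Ta.900.1.S1_at was the clearest, with 12.19, 11.96 and 11.78 in TugelaDn5, 4.22, the floor and 10.97 in TugelaDn2, and the floor in all Tugela repeats. TugelaDn5 was at least 251-fold higher than Tugela, with an adjusted p of 0.0278 when that array was in the fit and 6.83e-08 without it. Ta.7158.1.S1_at read 13.08, 13.20 and 13.30 in TugelaDn5, 7.02, 4.19 and 11.27 in TugelaDn2, and 5.11, 4.01 and the floor in Tugela, at least 452-fold higher in TugelaDn5 than in Tugela (adjusted p = 0.0159, and 0.00136 without the array). TaAffx.92234.1.A1_at read 12.72, 12.76 and 12.56 in TugelaDn5, 5.99, 6.39 and 11.96 in TugelaDn2, and 5.89, 6.69 and 5.94 in Tugela (90.7-fold, adjusted p = 0.0356, and 2.79e-05 without it). The TugelaDn1 repeats of these probe sets were at 7.40 or less. TaAffx.12907.1.A1_at, Ta.6210.1.S1_at, Ta.12172.1.S1_at and Ta.26907.1.S1_at had TugelaDn2 repeat 3 at 9.35, 8.49, 12.54 and 8.65, and were 102-fold to at least 221-fold higher in TugelaDn5 than in Tugela. In Ta.26907.1.S1_at, TugelaDn1 repeat 3 was raised as well, at 9.06.

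The calls of the rises were less stable than those of the falls. Of the 12 largest rises 5 were called in all 22 alternatives other than the 2-line block fit. The other 7, Ta.7158.1.S1_at, Ta.900.1.S1_at, TaAffx.12907.1.A1_at, Ta.23373.1.S1_at, Ta.26907.1.S1_at, Ta.12172.1.S1_at and TaAffx.92234.1.A1_at, lost the call in 5 to 10, each of them without TugelaDn5 repeat 1 or 2 or Tugela repeat 2 or 3. Their highest adjusted p over the alternatives was 0.0641 to 0.115. No change of sign occurred. With the repeat number as a block over all 4 lines, Ta.900.1.S1_at, TaAffx.92234.1.A1_at and Ta.23373.1.S1_at had adjusted p of 0.0563, 0.0602 and 0.0614.

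The 12 largest falls were alike, dim in every repeat of TugelaDn5, most of them near the floor, and bright in every repeat of TugelaDn1, TugelaDn2 and Tugela. TugelaDn5 repeats lay from the floor to 7.40, TugelaDn1 repeats between 10.60 and 14.30, TugelaDn2 repeats between 9.92 and 14.30, and Tugela repeats between 10.57 and 14.05. Ta.14507.2.S1_at was at the floor in all 3 TugelaDn5 repeats, and read 11.97, 12.12 and 11.95 in Tugela, at least 258-fold lower in TugelaDn5 (log2 change -8.01, SE 0.12, limma adjusted p = 3.82e-09). Ta.6952.1.S1_a_at was also at the floor in all TugelaDn5 repeats and read 10.95, 10.88 and 10.99 in Tugela (at least 123-fold, adjusted p = 6.79e-07). Ta.24947.1.S1_at kept a measurable level in TugelaDn5, with 7.40, 6.67 and 7.17, against 14.05, 13.81 and 14.01 in Tugela, 118-fold lower (adjusted p = 3.76e-07). None of the 12 is paired with a gene.

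Ta.7259.1.S1_a_at had the largest fall, with the floor, 4.83 and 5.03 in TugelaDn5 and 12.71, 12.85 and 12.87 in Tugela (at least 292-fold lower, log2 change -8.19, SE 0.31, adjusted p = 2.24e-06). Others of this kind were TaAffx.14498.1.S1_at (at least 271-fold), TaAffx.55074.1.S1_s_at (at least 199-fold), Ta.28263.1.S1_at (at least 179-fold), Ta.10349.2.S1_at (at least 169-fold), Ta.13657.1.S1_at (at least 103-fold), Ta.30607.1.A1_at (103-fold) and TaAffx.27775.1.S1_at (at least 93.8-fold). All 12 were called in all 22 alternatives other than the 2-line block fit and in the contrast with the mean of TugelaDn1 and TugelaDn2. In 7 of the 12, TugelaDn2 repeat 3 was the lowest of its line by more than 0.5 log2 units. This margin is smaller than the 1 log2 unit used for the rises, so the counts are not alike. In Ta.28263.1.S1_at, for instance, TugelaDn2 read 12.10, 12.04 and 10.86.

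**Figure D3:**
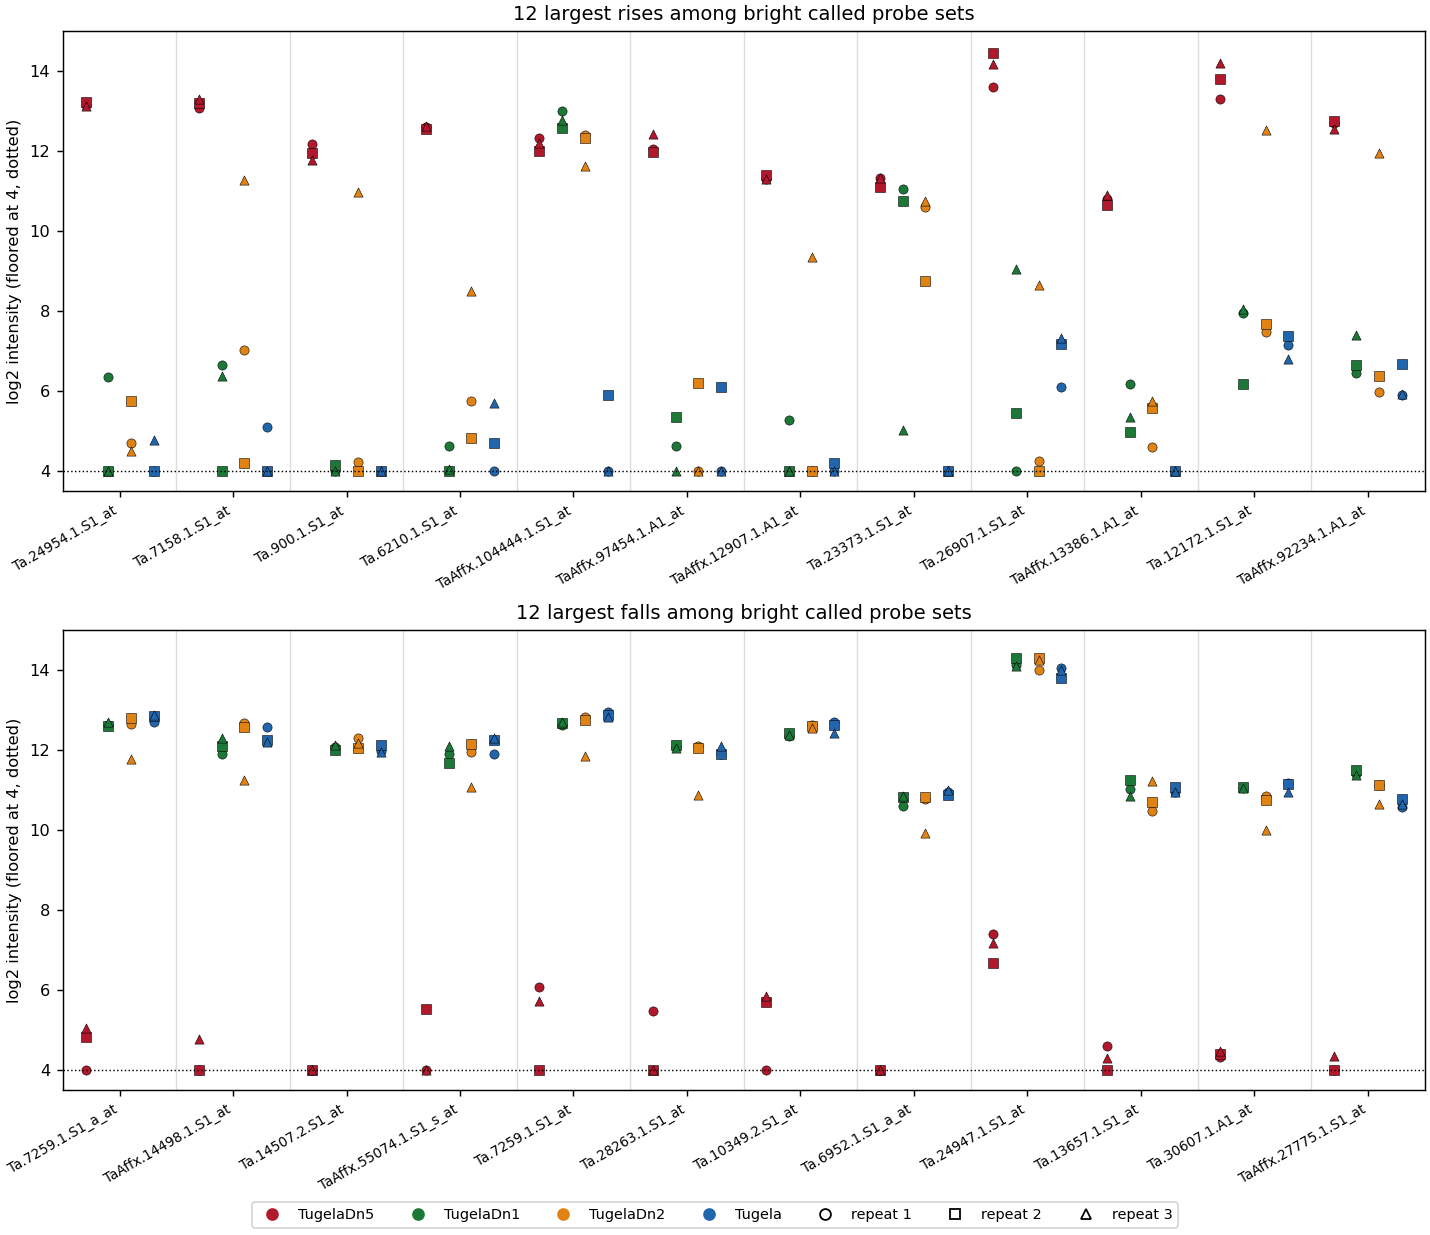
Log2 intensity of every repeat for the 12 largest rises (top) and the 12 largest falls (bottom) among called bright probe sets, ordered by size, with TugelaDn5, TugelaDn1, TugelaDn2 and Tugela from left to right in each column. The dotted line is the floor of 4. Falls had TugelaDn5 at 7.40 or less with the other lines at 9.92 or more, while among the rises TugelaDn2 repeat 3 (orange triangle) often lay above its line.

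Of the called probe sets 545 were bright in both lines (3.13% of 17401), so that they differed in degree. Of these 217 were higher (1.25%) and 328 lower (1.88%) in TugelaDn5. The 8 largest falls were 9.42-fold to 24.5-fold, were called in all 22 alternatives other than the 2-line block fit, and had TugelaDn1 and TugelaDn2 at 10.85 or more. TaAffx.24911.1.S1_at read 10.74, 10.92 and 10.86 in TugelaDn5 and 15.01, 14.96 and 15.04 in Tugela. The difference of 17.9-fold was large against an SE of 0.12 on the log2 scale (adjusted p = 4.45e-07). Ta.23365.1.A1_at read 9.38, 8.94 and 7.84 in TugelaDn5 and 12.67, 13.69 and 13.64 in Tugela (24.5-fold lower, adjusted p = 0.000392). Ta.23970.1.A1_at, Ta.14886.1.S1_at, TaAffx.79139.1.S1_at and TaAffx.53723.2.S1_x_at were lower by 13.7-fold, 12.3-fold, 10.3-fold and 9.42-fold. The list also held Ta.20421.1.S1_at and LOC606369, both described with their clusters or genes in later paragraphs.

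The 8 largest rises that were bright in both lines were 5.83-fold to 63.6-fold and differed more in how the other lines behaved. Ta.21340.1.S1_a_at read 14.95, 15.26 and 13.27 in TugelaDn5, 9.71 to 10.98 in TugelaDn1 and TugelaDn2, and 9.01, 8.38 and 8.12 in Tugela (63.6-fold, adjusted p = 0.000336). Repeats of all lines were thus ordered without overlap, TugelaDn5 above the other resistant lines and these above Tugela. Ta.3087.2.A1_at was high in both TugelaDn5 (12.69, 12.47 and 12.35) and TugelaDn2 (11.62, 12.18 and 12.36), and low in TugelaDn1 (8.35, 8.76 and 8.66) and Tugela (8.41, 8.54 and 8.33), a 16.9-fold rise in TugelaDn5 over Tugela (adjusted p = 1.46e-05). On Ta.15207.1.S1_at the rise was 13.7-fold (adjusted p = 0.00355). These calls held in all 22 alternatives other than the 2-line block fit.

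The other 5 rises of this kind did not hold in all. TaAffx.16626.2.S1_s_at read 13.99, 14.13 and 14.00 in TugelaDn5, 10.33, 10.17 and 13.54 in TugelaDn2, and 10.26, 10.34 and 10.23 in Tugela (13.6-fold). Its adjusted p was 0.0314, and 3.04e-06 without TugelaDn2 repeat 3. Ta.5109.1.S1_a_at likewise had TugelaDn2 repeat 3 at 10.81, above 8.63 and 8.30, and was 8.82-fold higher in TugelaDn5 than in Tugela (adjusted p = 0.0182, and 9.19e-05 without that array). Ta.21297.1.S1_at, Ta.1967.2.A1_x_at and Ta.13682.1.A1_at were 5.83-fold, 7.67-fold and 6.4-fold higher with adjusted p of 0.0465, 0.0486 and 0.0442, and the call of Ta.21297.1.S1_at was lost without TugelaDn2 repeat 3 (adjusted p = 0.0567). All 5 lost the call without TugelaDn5 repeat 1 or 2 or Tugela repeat 2 or 3, with highest adjusted p of 0.0741 to 0.169. With the repeat number as a block TaAffx.16626.2.S1_s_at, Ta.21297.1.S1_at, Ta.1967.2.A1_x_at and Ta.13682.1.A1_at had adjusted p of 0.064, 0.074, 0.109 and 0.111.

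Probe sets that share the first fields of their name were designed on sequences of 1 transcript cluster, and those of a cluster mostly went the same way. Of 14349 clusters with a bright probe set, 3506 had 2 or more, and 271 of these held a called one. Every called probe set in these was set against each other bright member of its cluster. Of 780 such companions 228 were called in the same direction, 440 had the same sign without a call, 94 had the opposite sign and 18 were called in the opposite direction. The same sign was thus shared by 85.6%, against 70.8% of all 10096 pairs of bright probe sets within clusters. These units differ, since a pair with both members called enters the companions from either side and the 10096 pairs only once. Among probe sets whose names end in _at alone, without the letters a, s or x that mark probes shared between transcripts, it was 75% of 80 companions, against 62.6% of 1302 pairs. Members of a cluster can share probes, so these shares count no independent evidence. In 46 clusters all bright members were called in 1 direction.

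Ta.7259 was the cluster with the largest such fall, and all 4 of its bright probe sets were lower. Beside Ta.7259.1.S1_a_at, Ta.7259.1.S1_at was at least 197-fold, Ta.7259.2.S1_a_at at least 78.4-fold and Ta.7259.3.S1_x_at at least 19-fold lower. All 4 members of Ta.21069 were lower too, by 6.97-fold, 6.46-fold, 5.99-fold and 2.84-fold. They stayed bright, with Ta.21069.1.S1_a_at at 10.98, 10.90 and 10.88 in TugelaDn5 and 13.39, 13.46 and 13.65 in Tugela (adjusted p = 2.1e-05). In Ta.1082, which covers LOC100037531 and LOC100037645, 4 of 5 were called lower, by 2.3-fold to 2.85-fold, and the fifth, paired with LOC543268, was 2.11-fold lower without passing (adjusted p = 0.0509). With the repeat number as a block, Ta.1082.1.S1_x_at of LOC100037645 lost its call (adjusted p = 0.0654).

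Upwards, all 4 bright members of Ta.24564 were called, at 2.62-fold, 2.92-fold, 2.96-fold and 6.01-fold. Ta.24564.2.A1_at read 9.59, 9.44 and 9.56 in TugelaDn5 and 6.97, 7.0 and 6.86 in Tugela (adjusted p = 0.00127), with no overlap. All 3 of Ta.1457, which covers LOC542992 and LOC100037538, were higher by 1.9-fold, 3.26-fold and 3.66-fold, the first of which, Ta.1457.2.S1_at, was not called with the repeat number as a block (adjusted p = 0.0932). In Ta.7378 4 of 15 were called higher by 1.65-fold to 3-fold, 10 had positive changes without a call, and 1 had a change of -0.12. With the block Ta.7378.12.S1_x_at was not called (adjusted p = 0.0636).

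In 5 clusters bright members were called in opposite directions. Ta.20421.1.S1_at was 11.5-fold lower in TugelaDn5, at 10.48, 9.98 and 10.92 against 14.02, 13.83 and 14.11 in Tugela (adjusted p = 5.21e-05), and Ta.20421.2.A1_at was higher by 6.13-fold, at 9.13, 8.83 and 9.41 against 7.12, 6.46 and 5.94 (adjusted p = 0.0442, lost in 12 of 22 alternatives, and 0.112 with the repeat number as a block). In Ta.21998 the probe set Ta.21998.2.S1_at was at the floor in TugelaDn5 and at 8.04, 8.41 and 7.84 in Tugela (at least 17.1-fold lower, adjusted p = 3.52e-05). Ta.21998.1.A1_s_at of the same cluster read 14.26, 14.14 and 13.91 in TugelaDn5 and 13.27, 12.96 and 12.80 in Tugela (2.13-fold higher, adjusted p = 0.0228). Ta.20909 had members at least 20.9-fold and 8.21-fold lower, Ta.20909.2.S1_s_at and Ta.20909.2.S1_x_at, and one 1.9-fold higher, Ta.20909.3.S1_x_at. Ta.28366 held changes of 6.17-fold downwards and 3-fold upwards, and Ta.10329, with 17 bright members, of 4.72-fold downwards and 1.87-fold upwards. In all 5 clusters the largest called fall exceeded the largest called rise, and in all but Ta.20421 the rises were at most 3.1-fold.

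**Figure D4:**
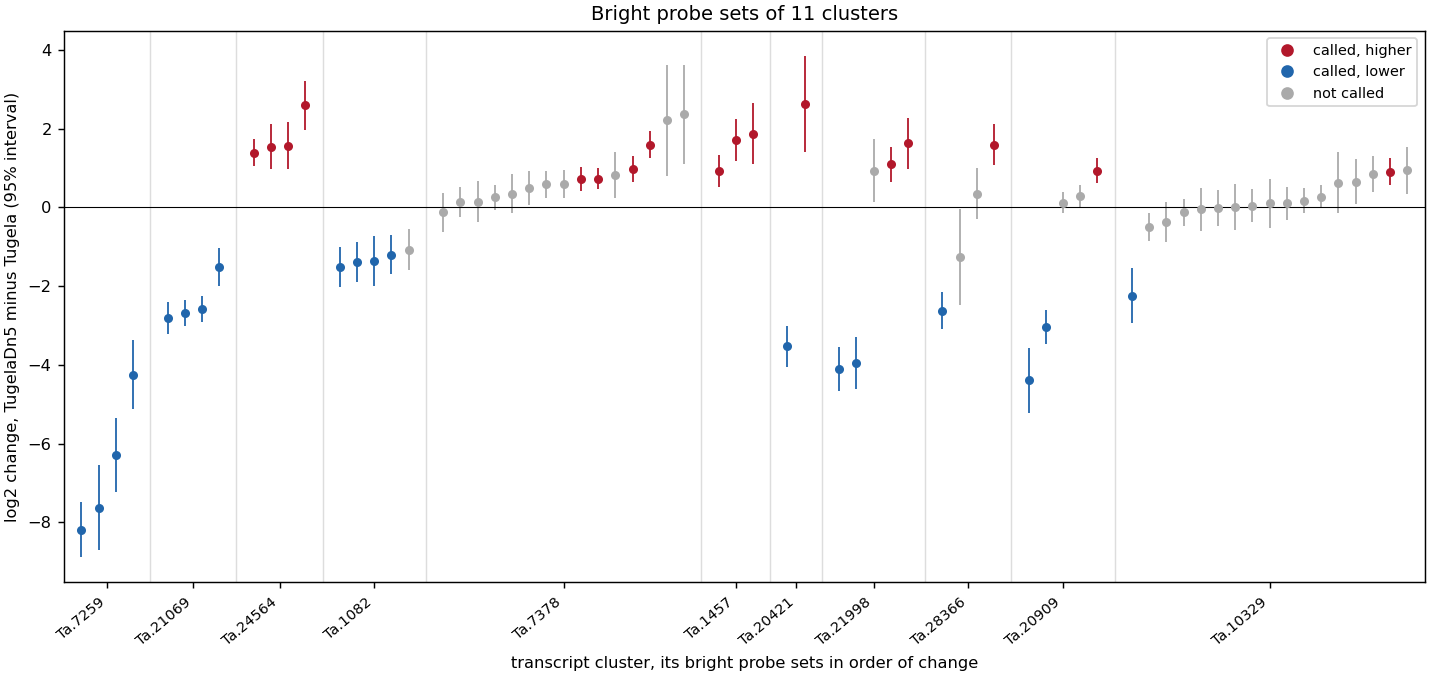
Log2 change, TugelaDn5 minus Tugela, with its 95% interval from the limma fit, for each bright probe set of 11 clusters: the 6 with the most probe sets called in 1 direction (Ta.7259 to Ta.1457) and the 5 with calls in opposite directions (Ta.20421 to Ta.10329). Each point is a probe set, and points within a cluster are in order of change. Ta.7259 ranged from -8.19 to -4.25, and Ta.20421 held changes of -3.53 and 2.62.

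Only 1273 probe sets were paired with a gene, and 40 of these were called (3.14%), 17 higher (1.34%) and 23 lower (1.81%), over 32 genes. Over all probe sets the shares were 2.07%, 0.819% and 1.25%, and 719 of the 1273 were bright, of which 37 were called, while 4.94% of all bright probe sets were. The 40 calls had median changes of 2.11-fold among the rises and 2.58-fold among the falls, beside 2.65-fold and 3.16-fold over called bright probe sets. Their median in either direction was 2.41-fold, and all but 1 were under 10-fold. The exception was LOC542941, read by Ta.13334.1.A1_at at 10.34, 10.98 and 10.93 in TugelaDn5 and 4.68, 6.47 and 5.80 in Tugela, 34.3-fold higher (SE 0.58 on the log2 scale, adjusted p = 0.0019). It was also high in TugelaDn1 and TugelaDn2, at 8.50 to 10.64, and TugelaDn5 minus their mean was 0.76 (adjusted p = 0.62). Most of these genes are known to the tables by a LOC number alone, and no role is given to those.

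LOC606369 had the largest fall of a paired gene on Ta.24806.2.S1_at, at 9.44, 9.84 and 9.72 in TugelaDn5 and 12.90, 12.99 and 12.95 in Tugela (9.71-fold lower, adjusted p = 1.16e-05). Its other 3 bright probe sets did not show this: Ta.24806.1.S1_x_at differed by -0.56, Ta.24806.2.S1_a_at by -0.48 and Ta.24806.3.S1_at by 0.06 on the log2 scale. LOC606345 was split as well, with Ta.5796.2.A1_at lower (7.12, 8.04 and 7.65 in TugelaDn5 against 9.65, 9.08 and 9.26 in Tugela, adjusted p = 0.021) and Ta.5796.3.S1_a_at at a change of 0.56 (adjusted p = 0.144). Of the 20 genes with a call and 2 or more bright probe sets, these were the 2 whose signs differed. In 8 of the 20 all bright probe sets were called.

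Genes whose probe sets changed together included LOC542999, with 9.98, 10.24 and 10.36 in TugelaDn5 against 7.48, 8.56 and 8.05 in Tugela on Ta.14632.1.S1_at (4.47-fold, adjusted p = 0.0107) and 2.78-fold on Ta.14632.1.S1_x_at. LOC543002 was 2.43-fold and 2.88-fold higher on Ta.23704.1.S1_s_at and Ta.23704.1.S1_x_at. LOC543338 was lower on both of its probe sets, by 2.8-fold on Ta.9320.1.S1_at (10.99, 11.29 and 11.62 in TugelaDn5 against 12.83, 12.72 and 12.82 in Tugela, adjusted p = 0.00274) and by 2.35-fold on Ta.9320.1.S1_x_at. LOC542853 was 4.21-fold lower at 8.51, 8.90 and 8.80 against 10.77, 10.91 and 10.75 in Tugela (adjusted p = 0.00581), with TugelaDn1 and TugelaDn2 at 9.95 to 11.37. Of the 40 calls 7 held in all 22 alternatives other than the 2-line block fit, among them those of LOC542941, LOC606369, LOC542853 and Ta.9320.1.S1_at.

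The tables name 102 genes, read by 200 probe sets, of which 3 were called (1.5%), a share near the 2.07% of all probe sets. These were placed in 12 groups with 57 genes and 124 probe sets, 71 of them bright. Of the transcripts of photosynthesis, 0 of 5 probe sets of electron transport (4 bright) and 0 of 31 of carbon fixation (10 bright) were called by limma, with 0 and 2 at an unadjusted p under 0.05. The median changes of bright members were -0.13, with all 4 below 0, and -0.043, beside 0.016 over all bright probe sets. PsbO read 16.20, 16.20 and 16.47 in TugelaDn5 and 16.22, 16.15 and 16.59 in Tugela. PRK, the Calvin cycle enzyme phosphoribulokinase, read 13.97, 13.76 and 14.21 in TugelaDn5 and 14.39, 14.64 and 14.86 in Tugela, apart but not called (log2 change -0.65, 95% interval -1.18 to -0.12, adjusted p = 0.255). In the redox group, with the hydrogen peroxide-degrading catalase CAT1 and thioredoxin Trx-M, 0 of 14 were called and 0 had an unadjusted p under 0.05, with bright members between -0.31 and 0.47.

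Of the defence proteins and inhibitors 1 of 16 was called, beside 2.07% of all probe sets and 4.94% of the bright ones, a count too small to be set against these shares. Of the 16, 5 were bright and 4 had an unadjusted p under 0.05, beside 23.4% of all bright probe sets. LTP3, a lipid transfer protein, was lower on the dimmer of its bright probe sets, at 6.96, 7.53 and 7.01 in TugelaDn5 against 9.29, 9.26 and 9.27 in Tugela (4.31-fold, adjusted p = 0.0274, lost in 7 of 22 alternatives, and 0.0627 with the repeat number as a block), while the far brighter Ta.1282.1.S1_x_at read 14.47, 14.69 and 14.94 against 14.71, 14.87 and 15.05. PR5, a thaumatin-like pathogenesis-related protein, varied within lines more than any other gene of the groups, with 13.99, 13.60 and 9.89 in TugelaDn5 and 13.28, 9.17 and 8.38 in Tugela. Its log2 change of 2.22 had a 95% interval of -0.81 to 5.24, although all 6 repeats of TugelaDn1 and TugelaDn2 were at 12.87 or more. The thionin and serpin genes of the group were dim in both lines, and the xylanase inhibitor xip had changes of -0.06 and 0.03.

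The methyl transfer and gibberellin groups had the largest median changes of the groups. No member was called by limma against Tugela, while 5 of 5 and 2 of 4 had an unadjusted p under 0.05, beside 23.4% of all bright probe sets. The groups were filled after values were seen, and SAHH and GA20ox1d each entered with a pair of probe sets. These counts therefore test nothing. SAHH, which clears the product of methylation reactions, read 14.22, 14.27 and 13.84 in TugelaDn5 and 13.64, 12.46 and 12.76 in Tugela on Ta.1258.1.S1_a_at (log2 change 1.16, adjusted p = 0.102), and 12.89, 12.96 and 12.48 against 12.25, 11.17 and 11.45 on Ta.1258.2.S1_x_at (1.15, adjusted p = 0.0848). In SAHH, TugelaDn1 and TugelaDn2 were near TugelaDn5, with means of 14.08 and 13.89 on Ta.1258.1.S1_a_at. TugelaDn5 minus their mean was 0.13 there and 0.12 on Ta.1258.2.S1_x_at (limma adjusted p of 0.91 for each). The lignin enzyme COMT1 and the choline-pathway enzyme PEAMT1 had changes of 0.82 and 0.83, and the protein repair methyltransferase PIMT of -0.68 (adjusted p = 0.0508). PEAMT1 had means of 11.77 in TugelaDn1 and 9.87 in TugelaDn2, against 10.63 in TugelaDn5. PIMT had 9.40 and 9.42 in TugelaDn1 and TugelaDn2, nearer to Tugela at 9.54 than to TugelaDn5 at 8.85. Of 5 probe sets 4 were above 0, with a median of 0.83. All 4 of the gibberellin 20-oxidases GA20ox1a, GA20ox1b and GA20ox1d were above 0 (0.44 to 0.89, median 0.76), with adjusted p from 0.264 to 0.775. Against the mean of TugelaDn1 and TugelaDn2, both GA20ox1d probe sets were called higher in TugelaDn5, by 1.29 and 1.43 (limma adjusted p of 0.0434 and 0.0341). Without TugelaDn2 repeat 3 these were not called (0.0646 and 0.0548). GA20ox1a and GA20ox1b differed by 1.15 and 1.09 in that contrast without a call (0.163 and 0.279).

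In the cytoskeleton group 1 of 12 was called, again beside 2.07% of all probe sets and 4.94% of the bright ones. Of the 12, 11 were bright and 5 had an unadjusted p under 0.05, beside 23.4% of all bright probe sets. This group too was filled after values were seen. The beta-tubulin Tubb5 was higher on Ta.214.2.A1_x_at, at 9.32, 9.60 and 9.09 in TugelaDn5 against 8.05, 8.46 and 8.28 in Tugela (2.11-fold, adjusted p = 0.0473, lost in 15 of 22 alternatives, and 0.103 with the repeat number as a block), and its other 3 bright probe sets had changes of 0.31 to 1.45. The remaining tubulins lay between -0.19 and 0.55. Histones and chromatin proteins (0 of 13 called), translation factors and ribosomal proteins (0 of 7) and transport and metal genes (0 of 9) had 2, 1 and 2 members at an unadjusted p under 0.05. They held ALMT1-1, a malate transporter, with the largest difference, -1.27 (adjusted p = 0.235). Of the seed storage proteins the avenin-like avnla was called lower on Ta.905.2.S1_x_at, at the floor, 4.73 and the floor in TugelaDn5 against 7.28, 7.32 and 6.99 in Tugela (at least 7.76-fold, adjusted p = 0.012), below the bright level in both lines. The bright avenin-like avnlb differed by 0.23 (adjusted p = 0.561), and both cold and dehydration genes were dim.

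**Figure D5:**
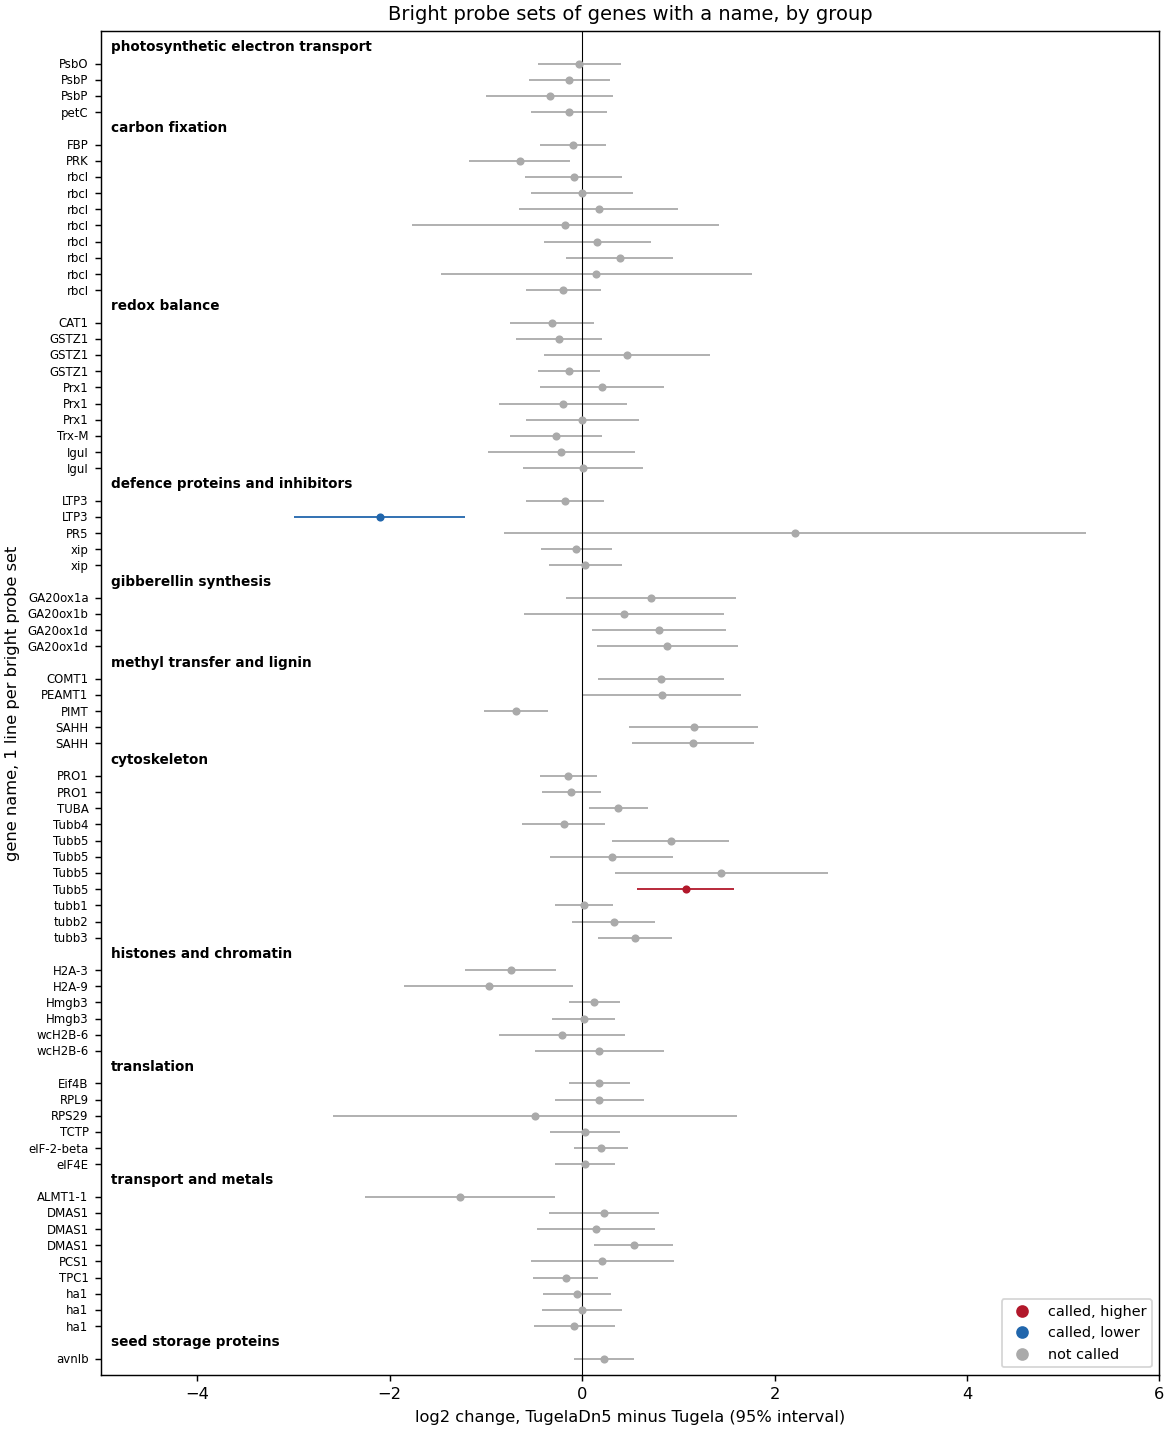
Log2 change, TugelaDn5 minus Tugela, with its 95% interval for the 71 bright probe sets of named genes, by group from top to bottom. Called probe sets are coloured: LTP3 lower and Tubb5 higher, at -2.11 and 1.07. Grey points did not pass the test, including SAHH at 1.15 and 1.16.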

How the data were processed

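The deposited value table held linear intensity values per probe set of a biotin-labelled single-colour array, scaled by the authors to 1 trimmed mean per array; the software and summary method are not given in the sources used here. Intensities under 16 were set to 16, log2 was taken and 111 control probe sets were removed. A linear model without a block was fitted to 12 repeats of 4 lines with limma 3.58.1 under R 4.3.3, followed by eBayes. The fit had 8 residual and 1.45 prior degrees of freedom, and the median half-width of a 95% interval was 0.46 for bright probe sets and 1.26 for others. The number of arrays limits the precision.

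Deviations of same-numbered TugelaDn5 and Tugela repeats from their line means correlated at 0.124 to 0.268 over probe sets. Other pairs of these lines correlated at -0.21 to 0.00867. The ranges are not independent, because deviations from a line mean cancel out within the line. Over all lines, differently numbered pairs reached from -0.272 to 0.303. These correlations therefore cannot decide whether the numbers pair the repeats, and a block was used as an alternative only. A fold is the difference of log2 means, and is a lower bound ("at least") where a repeat of the dimmer line lay at the floor.

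Named probe sets were all called ones paired with 1 gene, the 12 largest rises and falls, the 8 largest of each that were bright in both lines, the 6 clusters with most calls in 1 direction and those with opposite calls, and bright members of the gene groups. Other bright probe sets of called genes were added after their values were seen. The compared lines, rules and groups were chosen with earlier results of these data known, and the groups were filled from gene names after values were seen. Genes come from the platform annotation, with names from the RefSeq table of IWGSC CS RefSeq v2.1, and 59906 probe sets have no gene there. The description field of TugelaDn2 and TugelaDn5 samples names TugelaDn1; title and genotype were followed. The procedure was run on simulated data, drawn as independent normal values without a floor or a deviating array. Changes were placed only in probe sets above the median level. That run therefore cannot speak for the settings on which the counts moved. Alternatives were other floors, normalization, filter, variance model, block and samples.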

Additional observations from a re-analysis of the deposited data

How the results depend on the processing

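Precision is limited by 3 repeats a line. Against 1266 calls, a floor of 2 gave 833, a floor of 32 gave 1904, probe sets above the median level alone 2020, eBayes with trend and robust 2373, and TugelaDn5 and Tugela alone 832. Against 992 bright calls, a floor of 32 gave 1574, a floor of 64 gave 1576, probe sets above the median 1771, trend and robust 2102, and the 2 lines alone 559. With trend and robust 1158 of the 1266 were among the calls, and with the 2 lines alone 579. Leaving out 1 repeat gave 725 to 1314 calls, and 526 to 1018 bright calls. The cause of these shifts was not tested. The replicate block, which pairs repeats by number over all 4 lines, gave 862 calls, 823 of them among the 1266, and 665 bright calls (34.1% higher). With the block and the 2 lines alone, an alternative chosen after seeing the data, limma called 0 in both sets, with 2 residual degrees of freedom. Of 105 named called probe sets the block over all 4 lines ended 26 calls, 49 held in all 22 alternatives other than the fit of the 2 lines with the block, in which none was called, and none changed sign. The share of cluster companions with the same sign was 75.9% over all probe sets and 75% for names ending in _at, against 85.6%. The contrast with the mean of TugelaDn1 and TugelaDn2, 1249 calls with 469 higher, was run under 2 alternatives and gave 1789 with 868 higher at a floor of 64, and 1335 with 548 higher without TugelaDn2 repeat 3.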
